A study of Homo sapiens with 12 samples.

Results

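The miR-183 cluster consists of 3 miRNA genes, MIR183, MIR96 and MIR182, that lie next to each other on human chromosome 7. Its 4 members here are the mature strands hsa-miR-183-5p, hsa-miR-96-5p, hsa-miR-182-5p and hsa-miR-183-3p, which were found by name in the count table, 4 of 2588 mature miRNAs, each on a single entry. Small RNA was sequenced from A549 cells, an established human lung adenocarcinoma line with epithelial morphology, at 0, 24 and 96 h of EMT (epithelial-mesenchymal transition) induced with TGF-β. Each time point had 2 libraries, 6 in all, each with 2 samples whose counts the authors summed. The samples of a library differ in the date of their title. They were taken here as 2 sequencing runs, which the titles do not state. By the labels, the earlier run of every library has the same date, while the later run has one date for both 24 h libraries, another for both 96 h libraries and either of these for the 0 h libraries, so that in the later runs date and time point cannot be told apart between 24 and 96 h. The libraries of all 3 time points carried the same EMT-induced label and differed in hours of TGF-β, the dose is not given in the labels, and no untreated cultures at 24 or 96 h were analysed here, so that hours of TGF-β and hours in culture cannot be told apart. The labels number the libraries without saying that they came from separate cultures, so p-values measure the spread between these libraries, which may be technical.

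The cluster is transcribed as a single long precursor in many cells and is cut into 3 hairpins, each of which yields a 5p and a 3p strand. One strand of a hairpin is usually kept by Argonaute and the other is degraded. The mature strand then binds mRNAs mainly through its seed, the bases near its 5′ end, and lowers their translation and stability. The cluster is best known from sensory cells of the eye and inner ear, and it is abundant in many carcinomas and epithelial cells.

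In GRCh37 coordinates, the annotation of GENCODE release 44 lifted to that build placed MIR183 at chr7:129414745-129414854, MIR96 at chr7:129414532-129414609 and MIR182 at chr7:129410223-129410332, all on the minus strand. MIR183 and MIR96 were separated by 135 bases and MIR96 and MIR182 by 4199 bases, so that the cluster spanned 4632 bases. All 3 hairpins lay within the lncRNA gene ENSG00000286380 on the same strand and overlapped none of its annotated exons, which makes them intronic in that gene.

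The mature sequences are shown because the 5p strands resemble each other closely, in the seed that recognizes targets and in the rest that tells their reads apart. They are those of RefSeq (GRCh38.p14), written 5′ to 3′, with the seed (bases 2 to 8) in capitals. All 4 members had a sequence there.
hsa-miR-183-5p: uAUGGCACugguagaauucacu
hsa-miR-96-5p: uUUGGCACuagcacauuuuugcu
hsa-miR-182-5p: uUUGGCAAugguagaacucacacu
hsa-miR-183-3p: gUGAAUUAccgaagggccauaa
hsa-miR-1271-5p: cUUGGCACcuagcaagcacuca

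The 3 5p strands were 22, 23 and 24 bases long in the order miR-183-5p, miR-96-5p and miR-182-5p, and none shared its full seed with another. miR-96-5p and miR-182-5p had 6 of 7 seed bases in common, as did miR-183-5p and miR-96-5p, whereas miR-183-5p and miR-182-5p had 5 of 7. Outside the seed the order was different. Aligned from the 5′ end without gaps, miR-183-5p and miR-182-5p matched there at 13 of 15 positions, with UGGUAGAA from position 9 as their longest common run, against 7 of 15 for miR-183-5p and miR-96-5p and 6 of 16 for miR-96-5p and miR-182-5p. No pair of members was identical over its length, so a full-length read belongs to 1 member, but how the authors' counting handled reads with mismatches is not given in the sources used here.

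hsa-miR-1271-5p, encoded elsewhere in the genome, was the only other miRNA in the sequence table with the seed of miR-96-5p. It had counts of 1 and 1 at 0 h, then 0 and 1 at 24 h, then 1 and 0 at 96 h, and was too low to be tested. Nearly all reads with this seed were therefore those of miR-96-5p, 3259 of 3260 in the first 0 h library. Among the 1854 different seeds of the 2281 mature miRNAs with a sequence, which held 97.6% of the reads, the seed of miR-182-5p ranked between 14 and 17 by reads in the 6 libraries. The seed of miR-183-5p ranked between 22 and 27, and that of miR-96-5p between 31 and 35.

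The 5p strands were abundant at every time point. miR-182-5p, the most abundant member, had counts of 12497 and 13866 at 0 h, then 13131 and 16010 at 24 h, then 26149 and 24357 at 96 h, and ranked between 15 and 21 among all mature miRNAs. miR-183-5p had counts of 5292 and 6690 at 0 h, then 5958 and 7365 at 24 h, then 13120 and 11871 at 96 h, with ranks from 30 to 41. miR-96-5p had counts of 3259 and 3040, 3356 and 4248, and 6986 and 4398 in the same order, with ranks from 45 to 57. The order miR-182-5p, miR-183-5p, miR-96-5p held in all 6 libraries. The raw counts were higher at 96 h together with the total counts on mature miRNAs, which were 2335185 and 2456447 at 0 h, then 2545769 and 3214230 at 24 h, then 5971197 and 4658823 at 96 h.

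As a share of all reads on mature miRNAs, the 4 members together made up 0.902% and 0.961% at 0 h, then 0.882% and 0.860% at 24 h, then 0.775% and 0.872% at 96 h. The means were 0.932% ± 0.0421 at 0 h, then 0.871% ± 0.0157 at 24 h and 0.824% ± 0.0689 at 96 h (SD, n = 2). Both libraries of 0 h lay above all libraries of 24 and 96 h, while those of 24 and 96 h overlapped. These shares were set against a total of which hsa-miR-21-5p, the most abundant miRNA of these cells, held 54.3% ± 2.61 at 0 h, then 57.5% ± 0.931 at 24 h and 64.7% ± 1.26 at 96 h (SD, n = 2). When miR-21-5p was left out of the total, the share of the cluster was 2.04% ± 0.0240 at 0 h, then 2.05% ± 0.00798 at 24 h and 2.33% ± 0.112 at 96 h (SD, n = 2). The 96 h libraries, at 2.25% and 2.41%, then lay above all others. The direction of the cluster between 0 and 96 h thus depended on what the reads were set against, and the comparisons of members below give the values on both scales.

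Within the cluster, the parts of the more abundant strands varied little. miR-182-5p held from 56.5% to 59.9% of the reads of the cluster in the 6 libraries, and miR-183-5p from 25.1% to 29.2%. miR-96-5p was the most variable of the 5p strands, from 10.8% in the second 96 h library to 15.5% in the first 0 h library. miR-183-3p held from 0.0344% to 0.0762%.

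For the comparisons between time points, counts were scaled with TMM, which sets libraries equal on the bulk of miRNAs rather than on the total, and tested across the 491 miRNAs that passed the filter on low counts, all 4 members among them. To be called, a miRNA needed an adjusted p under 0.05 as well as a log2-fold change beyond 1 in either direction, the thresholds of the study's methods. At 24 h versus 0 h, 0 of the 4 members were called, where 3.46% of all tested miRNAs were. At 96 h versus 0 h, 0 of 4 were called against 25.9% of all, and at 96 h versus 24 h 0 of 4 against 5.91% of all. By the adjusted p alone, the members that passed numbered 0 at 24 h versus 0 h (7.13% of all tested), 2 at 96 h versus 0 h (44%) and 1 at 96 h versus 24 h (12.6%).

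miR-183-5p, the 5p strand of the first hairpin, is described first. Its TMM-normalized CPM were 1939 and 1996 at 0 h, then 2217 and 2253 at 24 h, then 2977 and 3220 at 96 h. The groups did not overlap on this scale, and each later time point was higher, which was not counted for the other tested miRNAs. As shares of all reads, the groups of miR-183-5p overlapped. The log2-fold change was 0.66 ± 0.13 at 96 h versus 0 h (SE), a fold of 1.57, with an adjusted p of 0.00297 (edgeR quasi-likelihood F-test) and a 95% interval of the log2-fold change from 0.37 to 0.94. That interval did not reach the threshold of 1. At 24 h versus 0 h the log2-fold change was 0.18 ± 0.13 (adjusted p = 0.387, edgeR), with an interval from −0.10 to 0.47. From 24 to 96 h it was 0.47 ± 0.13 (adjusted p = 0.0401, edgeR) on the TMM scale. On total counts the log2-fold change at 96 h versus 0 h was −0.07 (adjusted p = 0.679, edgeR), and over the alternatives other than leaving out a library in turn its adjusted p ran from 6.26e-05 to 0.679. The other comparisons gave −0.11 at 24 h versus 0 h and 0.035 at 96 h versus 24 h on total counts, and for the latter the adjusted p ran from 0.0116 to 0.858 over the same alternatives. The difference from 24 to 96 h no longer passed an adjusted p of 0.05 (edgeR) when any library of these time points was left out, with 0.277 and 0.115 without the first and second 24 h library, and 0.154 without either 96 h library.

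miR-182-5p, the 5p strand of the last hairpin, had levels of 4578 and 4137.5 CPM at 0 h, 4887 and 4898 at 24 h, then 5933 and 6606 at 96 h after TMM. Here too the 3 time points did not overlap on the TMM scale, which was again not counted over all tested miRNAs. As shares of all reads, the libraries of miR-182-5p at 24 and 96 h overlapped. The log2-fold change at 96 h versus 0 h was 0.52 ± 0.14 (SE, adjusted p = 0.0116, edgeR), a fold of 1.44, with an interval from 0.22 to 0.83. It was 0.17 ± 0.14 at 24 h versus 0 h (adjusted p = 0.453, edgeR) and 0.36 ± 0.14 at 96 h versus 24 h (adjusted p = 0.106, edgeR). On total counts the value at 96 h versus 0 h was −0.19 (adjusted p = 0.211, edgeR), and over the same alternatives the adjusted p of this comparison ran from 0.00105 to 0.242. At 96 h versus 24 h the adjusted p ran from 0.0451 (edgeR), with only the libraries compared, to 0.647 (edgeR), on total counts. These limits are over the alternatives other than leaving out a library. When any single library was dropped, the TMM value at 96 h versus 24 h stayed between 0.355 and 0.493. The values on total counts were −0.12 at 24 h versus 0 h and −0.08 at 96 h versus 24 h, so all 3 comparisons turned with the scaling. Without the second 96 h library the TMM value at 96 h versus 0 h was 0.49, and its adjusted p of 0.0823 (edgeR) missed the threshold.

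miR-96-5p, the 5p strand of the middle hairpin, differed most of the 5p strands between the libraries of 0 h and of 96 h on the TMM scale. Its levels were 1194 and 907 CPM at 0 h, 1249 and 1299 at 24 h, then 1585 and 1193 at 96 h after TMM. The second 96 h library lay within the range of the 0 h libraries and below both 24 h libraries. The log2-fold change at 96 h versus 0 h was 0.40 ± 0.18 (SE), with an adjusted p of 0.0872 (edgeR) and an interval from 0.00 to 0.80. It was 0.28 ± 0.18 at 24 h versus 0 h (adjusted p = 0.346, edgeR) and 0.12 ± 0.18 at 96 h versus 24 h (adjusted p = 0.661, edgeR). On total counts it was −0.32 at 96 h versus 0 h (adjusted p = 0.0983, edgeR), so that neither of these values passed the test. With DESeq2's size factors it was 0.48 (adjusted p = 0.0445, edgeR), and over the alternatives other than leaving out a library the adjusted p ran from this value to 0.789. Without the first 0 h library, the one with the higher level, the TMM value was 0.66 at 96 h versus 0 h (adjusted p = 0.00433, edgeR) and 0.53 at 24 h versus 0 h (adjusted p = 0.0430, edgeR), while without the second 0 h library it was 0.23 and 0.11 (adjusted p = 0.327 and 0.718, edgeR). At 96 h versus 24 h it was −0.04 without the first and 0.40 without the second 96 h library. On total counts miR-96-5p had 0.0037 at 24 h versus 0 h and −0.32 at 96 h versus 24 h. Its values thus depended on single libraries at 0 and 96 h and on the scaling.

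**Figure D1:**
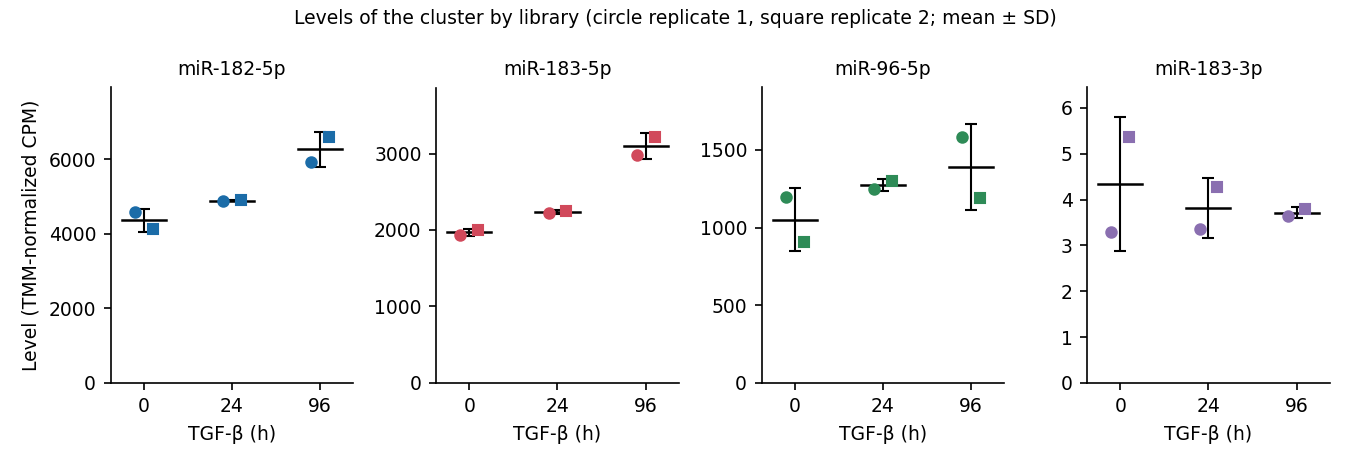
Levels of the 4 members in TMM-normalized CPM (vertical axis, linear from 0, a scale of its own in each panel) against hours of TGF-β, with 1 point per library and the mean ± SD of 2 libraries. miR-182-5p and miR-183-5p lie higher at 96 h than at 0 h on this scale and not on total counts, whereas the libraries of 0 and 96 h overlap for miR-96-5p and miR-183-3p.

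miR-183-3p, the other strand of the first hairpin, was near the lower limit of what these libraries can measure. It had counts of 9 and 18 at 0 h, then 9 and 14 at 24 h, then 16 and 14 at 96 h, which are 3.30 and 5.37, 3.35 and 4.28, and 3.63 and 3.80 CPM after TMM. The time points overlapped. The log2-fold change was −0.19 ± 0.49 at 24 h versus 0 h, −0.24 ± 0.47 at 96 h versus 0 h and −0.05 ± 0.48 at 96 h versus 24 h (SE), with adjusted p of 0.810, 0.705 and 0.971 (edgeR). Without the second 0 h library the first 2 of these turned to 0.23 and 0.18, and without the second 24 h library the last turned to 0.23. On total counts they were −0.50, −0.98 and −0.48. The interval at 96 h versus 0 h ran from −1.29 to 0.81, so a difference of the size found in its 5p partner was not detectable at this depth.

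The passenger strands of the other hairpins were scarce too. miR-182-3p had counts of 4 and 15 at 0 h, then 11 and 6 at 24 h, then 15 and 18 at 96 h, with a log2-fold change at 96 h versus 0 h of 0.42 ± 0.61 (SE, adjusted p = 0.608, edgeR). miR-96-3p was scarcer still, with counts of 0 and 3, 1 and 2, and 3 and 1 in the same order, and did not pass the filter. The 0 in the first 0 h library is compatible with up to 3 counts, or 1.28 CPM of its total. In all 3 hairpins, therefore, the 5p strand took nearly all of the reads at every time point.

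The scaling moved all miRNAs together, so the members were also set against the median of all tested miRNAs. At 96 h versus 0 h that median was −0.10 on the TMM scale, −0.03 with DESeq2's size factors, −0.45 on total counts without miR-21-5p and −0.83 on total counts. The log2-fold change of miR-183-5p lay above the median by between 0.60 and 0.80 under the main analysis and its alternatives, that of miR-182-5p by between 0.46 and 0.67 and that of miR-96-5p by between 0.35 and 0.63, the analyses that leave out a library aside. miR-183-3p lay below the median, by −0.10 to −0.16. The sign of the 5p strands thus followed the scaling, from higher under TMM to lower under total counts. Another scaling shifts all miRNAs nearly alike, so the distance to the median stays almost the same by construction and says nothing about stability.

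**Figure D2:**
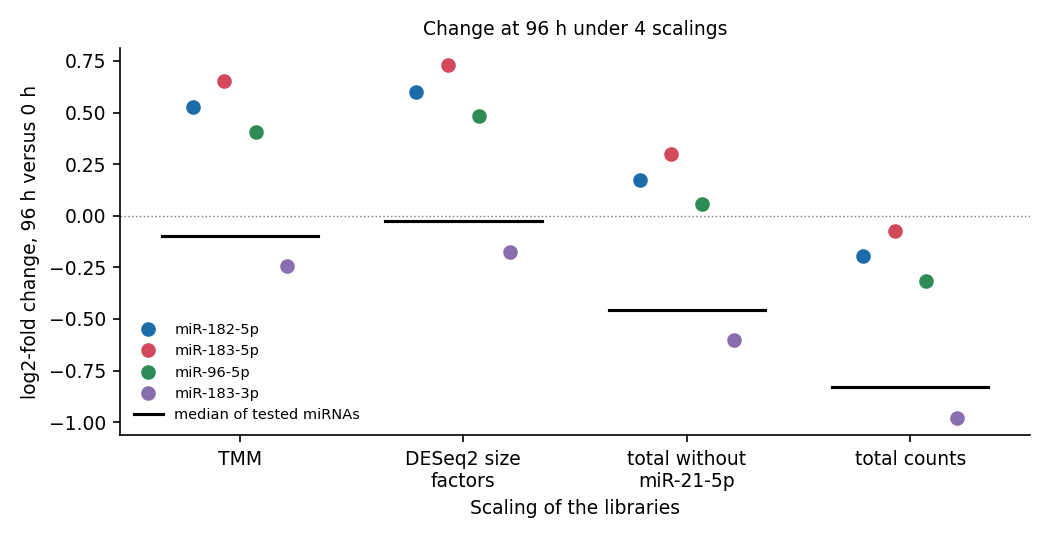
The log2-fold change at 96 h versus 0 h (vertical axis) of the 4 members (points) and the median of the 491 tested miRNAs (black lines) under 4 ways of scaling the libraries (horizontal axis). The 3 5p strands lie above the median under each of these 4 scalings, and above 0 under TMM (0.66 for miR-183-5p) but below 0 on total counts (−0.07 for miR-183-5p). A scaling shifts points and line together, so their distance is nearly fixed by construction.

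Among the 491 tested miRNAs, miR-183-5p stood at percentile 76.2 of the log2-fold changes at 96 h versus 0 h, the 118th from the highest value. miR-182-5p stood at percentile 72.7, miR-96-5p at 69.7 and miR-183-3p at 43.4. At 24 h versus 0 h the 5p strands stood closer to the middle, at percentiles 63.3 for miR-183-5p, 61.3 for miR-182-5p and 68.6 for miR-96-5p. The comparisons at 24 and 96 h share the 0 h libraries.

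**Figure D3:**
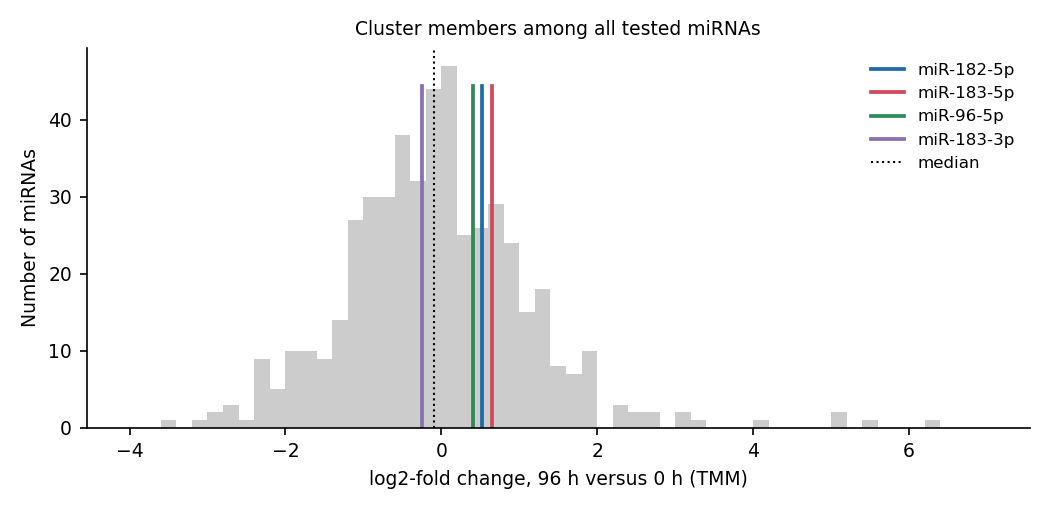
Histogram of the log2-fold changes at 96 h versus 0 h on the TMM scale (horizontal axis, bars count miRNAs) of the 491 tested miRNAs, with the 4 members as coloured lines and the median as a dotted line. The 5p strands stand above the median, between percentiles 69.7 and 76.2, and miR-183-3p at percentile 43.4. On total counts the whole distribution lies lower and the 5p strands are below 0.

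Ratios of strands within a library need no scaling between libraries. miR-182-5p over miR-183-5p was 2.36 and 2.07 at 0 h, then 2.20 and 2.17 at 24 h, then 1.99 and 2.05 at 96 h. Both 96 h libraries lay below all others, and the log2 ratio was −0.13 relative to 0 h and −0.11 relative to 24 h. The first of these was −0.04 without the first 0 h library and −0.22 without the second. The exact 95% interval of the second 0 h library, 2.01 to 2.13, included the second 96 h value. With 2 libraries against 2 the smallest p of the exact two-sided permutation test is 0.33, which both comparisons gave, so none of the 12 ratio comparisons could pass a threshold of 0.05.

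miR-96-5p over miR-183-5p was 0.616 and 0.454 at 0 h, then 0.563 and 0.577 at 24 h, then 0.532 and 0.370 at 96 h. The exact 95% intervals of the libraries of a time point did not overlap at 0 h (0.589 to 0.643 and 0.435 to 0.474) or at 96 h (0.517 to 0.548 and 0.358 to 0.384), and they overlapped at 24 h. The difference within 0 h and within 96 h was thus larger than counting error, and larger than the log2 difference of −0.25 between the means of 96 h and 0 h. miR-182-5p over miR-96-5p was 3.83 and 4.56, 3.91 and 3.77, and 3.74 and 5.54 in the same order, again with the widest difference at 96 h. For miR-96-5p over miR-183-5p, the log2 difference of 96 h from 0 h was −0.03 without the first 0 h library and −0.47 without the second. For miR-182-5p over miR-96-5p it was −0.0026 and 0.25 in the same order. Without the first 96 h library these differences were −0.51 and 0.41. Without the second 96 h library, the log2 difference of 96 h from 0 h was 0.0094 for miR-96-5p over miR-183-5p, and it turned from 0.12 to −0.16 for miR-182-5p over miR-96-5p. In the larger run of each library alone, a setting that lacks the second 96 h library because its runs could not be separated, these were 0.02 and −0.18, and miR-182-5p over miR-96-5p turned from 0.25 to −0.03 at 96 h versus 24 h. In both ratios the second library had the lower relative level of miR-96-5p at 0 and 96 h.

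miR-183-5p over miR-183-3p, the balance between the strands of a single hairpin, was 588 and 372 at 0 h, then 662 and 526 at 24 h, then 820 and 848 at 96 h. The 96 h values lay above all others, with a log2 difference of 0.83 from 0 h (exact permutation p = 0.33, the smallest possible). That difference was 1.17 without the first 0 h library, 0.50 without the second, and 0.54 in the larger run of each library alone. The exact 95% intervals, 310 to 1287 and 235 to 628 at 0 h against 505 to 1435 and 505 to 1551 at 96 h, overlapped, for the second 0 h library only from 505 to 628, and the 3p strand had at most 18 counts in a library.

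**Figure D4:**
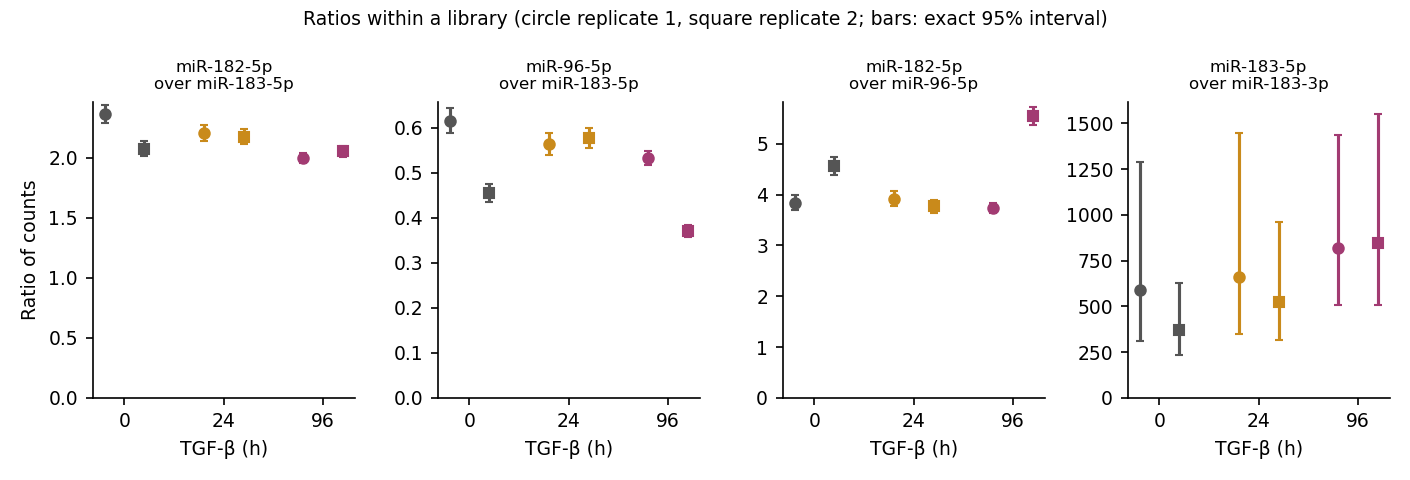
Ratios of counts of cluster strands within each library (vertical axes, linear from 0) against hours of TGF-β, with 1 point per library and the exact 95% interval of counting error as a bar. miR-182-5p over miR-183-5p stays between 1.99 and 2.36, the ratios with miR-96-5p split the libraries of 0 and of 96 h, and the intervals for miR-183-5p over miR-183-3p overlap.

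If the dated samples of a library are sequencing runs, as taken here, they give the spread that sequencing alone added. In the 5 libraries whose runs could be separated, the share of a 5p member in the larger run over that in the smaller run had a log2 ratio between −0.09 and 0.13 over 15 pairs, with a median size of 0.046. Of the 20 tests over all 4 members, 4 had an adjusted p under 0.05 (Fisher's exact test, which compares runs and not time points), and all 4 were of miR-182-5p. In the second 0 h library, miR-182-5p held 0.535% of the smaller run and 0.587% of the larger one (adjusted p = 1.32e-06, Fisher's exact test). The larger run was higher in 3 of these 4 libraries and lower in the first 24 h library.

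Between the libraries of a time point, the log2 ratio of the share of miR-96-5p, second over first, was −0.17 at 0 h, then 0.0037 at 24 h and −0.31 at 96 h. For miR-183-5p it was 0.27, −0.03 and 0.21 and for miR-182-5p 0.08, −0.05 and 0.26. At 96 h, miR-96-5p was thus lower in the second library while miR-183-5p and miR-182-5p were higher. Between the runs of a library the share of miR-96-5p differed by at most 0.0756 (log2), in the first 24 h library. The runs of the second 96 h library could not be separated, so its low miR-96-5p was not checked in this way.

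**Figure D5:**
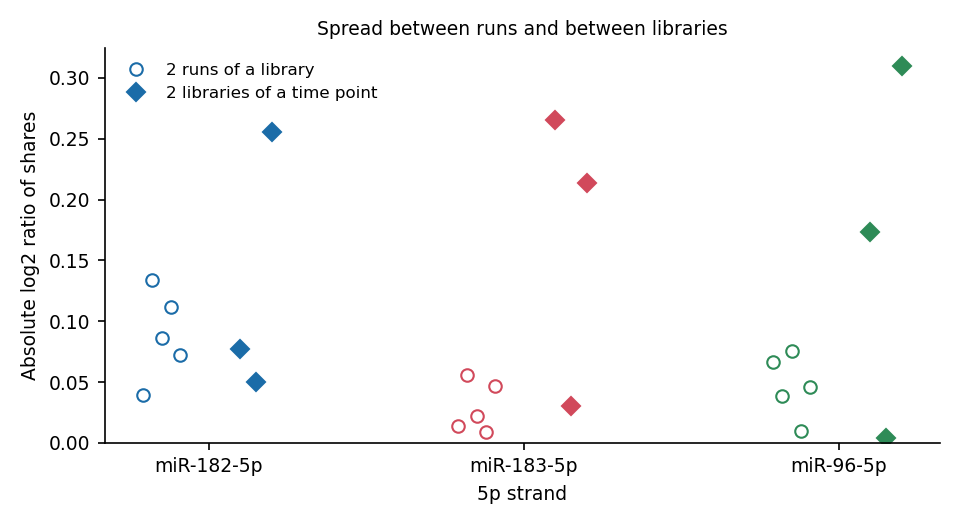
Absolute log2 ratio of a member's share of reads (vertical axis, linear from 0) between the 2 runs of a library (open circles, 5 libraries) and between the 2 libraries of a time point (diamonds, 3 time points), for each 5p strand. All run pairs lie at or below 0.134, while library pairs reach 0.310 for miR-96-5p at 96 h and the 24 h pairs lie at or below 0.0504.

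Over the 6 libraries, the log2 levels of miR-183-5p and miR-182-5p had a Pearson correlation of 0.97 on the TMM scale and 0.74 on total counts. miR-183-5p and miR-96-5p had 0.54 and −0.41, and miR-96-5p and miR-182-5p 0.61 and 0.11. These are descriptions over 6 libraries that share their time points and scaling. By the same measure, the miRNAs most like the mean of the 3 5p strands among 319 with at least 10 CPM were miR-21-5p, miR-323b-3p and miR-382-3p, with correlations of 0.999, 0.998 and 0.992. Such values were common, since 68 of the 319 reached at least 0.9 on the TMM scale, and the median of all 319 was 0.16 on that scale and 0.84 on total counts. On total counts the 3 correlations turned to −0.994, −0.983 and −0.959, so this likeness depended on the scaling, with TMM factors from 0.738 to 1.36. Because miR-21-5p made up most of the total, a higher share of it lowers other shares by construction. Its value on total counts therefore says little about likeness. On the TMM scale the sizes also differed, since miR-382-3p had a log2-fold change at 96 h versus 0 h of 1.83 and miR-323b-3p of 1.47.

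Within 5 Mb of the cluster the annotation held 10 other miRNA precursors, of which 4 could be matched to 7 mature miRNAs of the table and 3 of these were tested, with values here on the TMM scale only. miR-335-3p, from a precursor 721 kb away, had a log2-fold change at 96 h versus 0 h of 0.74 (adjusted p = 0.0458, edgeR), and its 5p partner miR-335-5p of −0.01 (adjusted p = 0.982, edgeR). miR-129-5p, which has another precursor outside this window, had 1.51 (adjusted p = 0.00107, edgeR) and was the only one of the 3 that was called, where 25.9% of all tested miRNAs were.

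For the cell type, the cluster was set beside lists of marker miRNAs. The epithelial list (the miR-200 family, miR-203a-3p, miR-205-5p and miR-375) had 7 of 8 members tested, and 1 was called higher and 0 lower at 96 h versus 0 h, where 12.6% of all tested miRNAs were called higher and 13.2% lower, and the median of its log2-fold changes was 0.20 beside −0.10 for all tested, both on the TMM scale. All 8 together reached 151 and 153 CPM at 0 h, 187 and 214 at 24 h, then 279 and 266 at 96 h after TMM. Of this, miR-200b-3p, the member called, made up 45.1 and 43.0 CPM at 0 h and 147 and 120 at 96 h. The log2-fold changes at 96 h versus 0 h went both ways under TMM. They were 1.60 for miR-200b-3p, 0.81 for miR-200a-3p, 0.75 for miR-203a-3p and 0.20 for miR-429. Those of miR-200c-3p, miR-375 and the scarce miR-141-3p were −0.03, −0.19 and −1.14. On total counts the 8 together reached 176 and 208 CPM at 0 h, 197 and 218 at 24 h, then 206 and 211 at 96 h. The 96 h libraries thus lay above all others under TMM, while on this scale the time points overlapped. The cluster had between 37.6 and 51.2 times their summed level. Of the fibroblast and smooth muscle list, 2 of 5 were tested. miR-143-3p was called higher at 96 h versus 0 h, and so was miR-145-5p, which had counts of 1 and 0 at 0 h, 3 and 4 at 24 h, then 29 and 25 at 96 h and passed the filter only through the 96 h libraries, so that its call was largely fixed by the filter. After TMM the summed level of the list was 8.79 and 5.37 CPM at 0 h, 100.1 and 104.6 at 24 h, then 418 and 452 at 96 h. Of this, miR-143-3p made up 6.23 and 4.48 CPM at 0 h and nearly all at 24 and 96 h. Among the untested members, miR-199a-3p had counts of 5 and 3 at 0 h, 1 and 12 at 24 h, then 10 and 7 at 96 h. miR-199a-5p had 1 and 0, 0 and 2, and 4 and 0 in the same order, and miR-214-3p was at 0 in each of the 6 libraries. The 6 blood cell miRNAs summed to between 1.13 and 5.49 CPM after TMM, with miR-223-3p and miR-150-5p at 0 in all libraries. The part of these marker levels in the values of the cluster was not tested.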

How the data were processed

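Small RNA libraries (Illumina kit, HiSeq) were analysed with miRDeep2 by the authors. They deposited counts, raw reads per mature miRNA and precursor with both runs of a library summed, and normalized values, a signal in which, judging from the values, each run was scaled as CPM and the runs were added. hg19 is named in the submitters' processing notes. The reference miRNA set and mapper settings are not given in the sources used here. Of the normalized values, 1 column repeats another and was not used, so 96 h replicate 2 has no normalized value here.

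For a mature miRNA with several entries (170 of 2588), the entry with the highest total was used. Counts were tested with edgeR 4.0.16 in R 4.3.3: TMM, filterByExpr with a minimum count of 10 (491 miRNAs, 99.96% of reads), 1 quasi-likelihood fit to all 6 libraries with time point as the only term, and Benjamini-Hochberg adjustment. The study names no test, and its thresholds were kept. The standard error is the absolute log2-fold change over the square root of F, and its interval uses the residual plus prior degrees of freedom. Ratios have exact Clopper-Pearson intervals and were tested by exact permutation, and runs by Fisher's exact test, adjusted over 20 tests. PCR copies carried no molecular identifiers, so intervals cover counting error alone, and 1 read was worth 0.167 to 0.428 CPM. The 2 runs were separated in 5 libraries by finding the whole reads that give each normalized value. The code was tested on simulated data.

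The miRNAs named are the members, the other strands of their precursors, miRNAs with the same seed, the 3 most alike and marker lists. Tested neighbours within 5 Mb are named where their precursor could be matched by name. Members and lists were chosen with earlier results of these data known. Alternatives used DESeq2 1.42.0 and limma 3.58.1 with a pseudocount of 1 among others. Comparisons of ratios in the larger run only were added after seeing the data.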

Additional observations from a re-analysis of the deposited data

How the results depend on the processing

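Of 201 recalculated log2-fold changes of members, 173 kept their direction and stayed uncalled, 25 changed direction and 3 were called once the minimum fold change was dropped. The adjusted p alone fell under 0.05 in 6 and no longer did in 16. Values below are log2 and the cause of each change was not tested. On total counts the direction turned at 24 h versus 0 h for miR-183-5p (−0.107) and miR-182-5p (−0.117), at 96 h versus 0 h for miR-183-5p (−0.0725), miR-96-5p (−0.317) and miR-182-5p (−0.195), and at 96 h versus 24 h for miR-96-5p (−0.320) and miR-182-5p (−0.0777). On total counts without miR-21-5p it turned for miR-182-5p at 24 h versus 0 h (−0.0121) and miR-96-5p at 96 h versus 24 h (−0.0495). With limma on the deposited normalized values, which lack 96 h replicate 2, it turned at 24 h versus 0 h for miR-183-5p (−0.0895) and miR-182-5p (−0.108), at 96 h versus 0 h for miR-183-5p (−0.150), miR-96-5p (−0.138) and miR-182-5p (−0.311), and at 96 h versus 24 h for miR-183-5p (−0.0610), miR-96-5p (−0.152) and miR-182-5p (−0.203). miR-183-3p at 96 h versus 24 h was 0.00869 with DESeq2's size factors in edgeR and 0.0142 with DESeq2, with no value under a filter of 10 CPM. None of these reversed values passed an adjusted p of 0.05. Without a minimum fold change, miR-183-5p (0.66) and miR-182-5p (0.52) passed at 96 h versus 0 h and miR-183-5p (0.47) at 96 h versus 24 h, which makes 2 and 1 members called.

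Leaving out each library in turn gave, at 24 h versus 0 h, 96 h versus 0 h and 96 h versus 24 h, 0.125 to 0.231, 0.640 to 0.739 and 0.463 to 0.586 for miR-183-5p, 0.106 to 0.528, 0.215 to 0.658 and −0.0359 to 0.395 for miR-96-5p, 0.107 to 0.279, 0.463 to 0.642 and 0.355 to 0.493 for miR-182-5p, and −0.441 to 0.231, −0.487 to 0.177 and −0.202 to 0.228 for miR-183-3p. A lone library was assumed to vary like the others. miR-96-5p turned without 96 h replicate 1 (−0.0359), and miR-183-3p without 0 h replicate 2 (0.231 and 0.177), 24 h replicate 1 (0.000821), 24 h replicate 2 (0.228) or 96 h replicate 1 (0.0394). Members called stayed at 0.

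With the replicate number as a block, miR-183-5p had 0.654 (adjusted p = 0.00598, edgeR) and miR-182-5p 0.525 (adjusted p = 0.0241, edgeR) at 96 h versus 0 h, and miR-183-5p 0.470 (adjusted p = 0.0737, edgeR) at 96 h versus 24 h. The block moved the calls among all tested miRNAs from 17 to 20, 127 to 124 and 29 to 41. Deviations of same-numbered libraries correlated at −0.31 for 0 and 24 h, 0.33 for 0 and 96 h and −0.20 for 24 and 96 h. These had no common direction, and whether same-numbered libraries share more than a number cannot be told from them. On total counts the calls among all tested miRNAs were 33, 215 and 72.

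In the larger run only, without 96 h replicate 2, the log2 ratio at 96 h versus 24 h was 0.329 for miR-183-5p over miR-183-3p and −0.138 for miR-182-5p over miR-183-5p. The log2 share of the cluster without miR-21-5p in the total was 0.00839, 0.192 and 0.184 in the order of comparisons above, against −0.10, −0.18 and −0.08. The planned ratios in the first run only were not run, since the runs could not be matched to their dates. Depth limits the 3p strands, with at most 18 counts in a library.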
